A study of Mus musculus with 6 samples.

Results

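The 180 genes described here are the well counted long intergenic noncoding RNA (lincRNA) genes of AE9a leukemia cells. They were chosen by biotype, lincRNA in the deposited table, and selected on their measured counts, which summed to 200 or more over the 6 RNA-seq libraries. The table holds 5559 lincRNA genes among 54532 genes, and 1354 of the lincRNA genes had at least 1 count. The choice used the summed level only, so the level itself is a description, while the difference between marrow regions was not used and can be tested. Just inside the limit were Gm17315 with 202 counts and Gm26711 with 201, and just outside it were Gm47662 with 198 and 5930430L01Rik with 197.

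AE9a leukemia is a transplantable mouse acute myeloid leukemia of C57BL/6 strain, made by infecting c-Kit+ progenitor cells with a retrovirus that carries AML1-ETO9a, a truncated form of the AML1-ETO fusion protein. The cells came from the third round of transplantation. Several facts limit the model: the oncogene is driven by a retrovirus, the hosts were irradiated female mice, and the labels do not say which mouse gave which library or whether mice were pooled. Central bone marrow (CBM) cells were flushed out of the bone, and endosteal bone marrow (EBM) cells were taken off the emptied bone with collagenase, with 3 libraries in each group. Region and digestion therefore cannot be told apart, and in such bulk RNA fewer cells of a type and less RNA per cell cannot be told apart either. Nothing in the labels says that the libraries came from separate animals, so the p-values measure the spread between these libraries, which may be technical.

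Most lincRNA genes are transcribed by RNA polymerase II, and their transcripts are capped and often spliced like messenger RNA but are not known to encode a protein. A few have well described roles. Xist coats and silences one X chromosome in female cells, Malat1 stays in nuclear speckles, and Neat1 builds the paraspeckles. Others are mainly host transcripts, from which microRNAs or small nucleolar RNAs (snoRNAs) are cut. Of the 180 genes, 146 carry only a Gm number or a Rik clone name and 7 a sequence clone name, and no role is given for these below. Every one of the 180 was found in GENCODE M21 (mouse genome build GRCm38), 171 of them at the coordinates of the table. Annotated length, the sum of exons, ran from 256 to 20771 bases with a median of 2140, and 19 genes have a single exon. Of the 180 genes, 99 overlap another annotated gene and 81 overlap none. A protein-coding gene lies on the opposite strand for 35 genes and on the same strand for 11. Whether reads were counted by strand is not given in the sources used here. Reads on overlapping genes may therefore be counted for both genes or for neither, which was not tested.

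Mir17hg, on chr14:115042879-115046727 (plus strand, 2 exons at most), is the host of the miR-17-92 cluster and was among the genes higher in EBM. Its 6 main mature microRNAs are shown with the seed (bases 2 to 8), the stretch that pairs with targets, in capitals. They are RefSeq sequences on GRCm38.p6 and fall into 4 seed groups, of which the first and the third hold a pair each.
mmu-miR-17-5p: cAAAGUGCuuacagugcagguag
mmu-miR-20a-5p: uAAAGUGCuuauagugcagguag
mmu-miR-18a-5p: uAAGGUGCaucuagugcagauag
mmu-miR-19a-3p: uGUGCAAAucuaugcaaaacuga
mmu-miR-19b-3p: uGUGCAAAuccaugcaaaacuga
mmu-miR-92a-3p: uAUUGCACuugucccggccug
The values below are those of the host transcript, and the 6 microRNA genes inside Mir17hg were listed at 0 in all 6 libraries. They share exonic bases with Mir17hg on the same strand, so how overlaps were counted may bear on these values, which was not tested.

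The junction between the first exons is printed for 7 lincRNA genes that are named by clone numbers only. They are the 5 whose unadjusted p stayed under 0.05 with each library left out (Gm27010, Gm47469, 1700020I14Rik, 1700063H04Rik and F420014N23Rik) and the overlapping pair Gm26809 and Gm20186. The last 30 bases of exon 1 are in lower case and the first 30 of exon 2 in capitals, from the longest spliced transcript in GENCODE M21.
Gm27010: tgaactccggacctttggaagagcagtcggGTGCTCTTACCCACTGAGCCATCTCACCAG
Gm47469: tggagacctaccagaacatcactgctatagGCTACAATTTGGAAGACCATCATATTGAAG
1700020I14Rik: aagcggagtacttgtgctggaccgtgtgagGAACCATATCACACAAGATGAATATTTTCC
1700063H04Rik: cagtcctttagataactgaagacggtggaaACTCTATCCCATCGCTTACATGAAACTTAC
F420014N23Rik: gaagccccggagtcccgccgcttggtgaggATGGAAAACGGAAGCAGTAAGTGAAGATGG
Gm26809: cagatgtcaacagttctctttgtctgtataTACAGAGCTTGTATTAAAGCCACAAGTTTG
Gm20186: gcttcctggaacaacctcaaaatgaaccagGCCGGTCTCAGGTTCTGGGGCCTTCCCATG
Of these 7 junctions, 5 occur in no annotated transcript of another gene. The junction of Gm47469 is also found in Gm46430, its neighbour on chromosome 13. The junction of Gm27010 is also found in transcripts of 3 other genes, Ing4, Poldip2 and St13, so reads over it do not identify the gene. To see how far this holds along the transcripts, each 50-base stretch was searched for on both strands in transcripts of other genes. Stretches shared with another gene made up 4.67% of Gm27010, 23.3% of Gm47469 and 77.2% of Gm20186. Only exact matches in annotated transcripts were sought, so diverged copies and introns were not covered, and a low percentage does not make a gene unique. The median over the 180 genes was 1.26%, 71 genes shared no stretch, and 11 shared more than 50%.

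LincRNA genes took a like share of the counts in both regions. Total counts on genes ran from 16436526 to 19462964 per library, where 3 counts correspond to 0.154 to 0.183 CPM (counts scaled to library size), a floor that covers counting error only. LincRNA genes held 0.954%, 0.897% and 0.908% of them in the CBM libraries (in the order of replicates 1, 2 and 3, as throughout) and 0.968%, 1.03% and 0.745% in the EBM libraries. The means, 0.920% ± 0.030 (SD, n = 3) in CBM and 0.916% ± 0.152 (SD, n = 3) in EBM, did not differ beyond the spread (two-sided exact permutation test, p = 1, smallest possible 0.1). EBM replicate 3 gave the lowest value. It also held the lowest CPM of 65 of the 180 genes, or 36.1%, against 22.3% of protein-coding genes, which were not matched on counts. CBM replicate 2 held the lowest CPM of 16.1% of the 180 genes and likewise of 22.3% of protein-coding genes. Without EBM replicate 3 the EBM minus CBM difference was 0.081 percentage points in place of -0.0040.

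**Figure D1:**
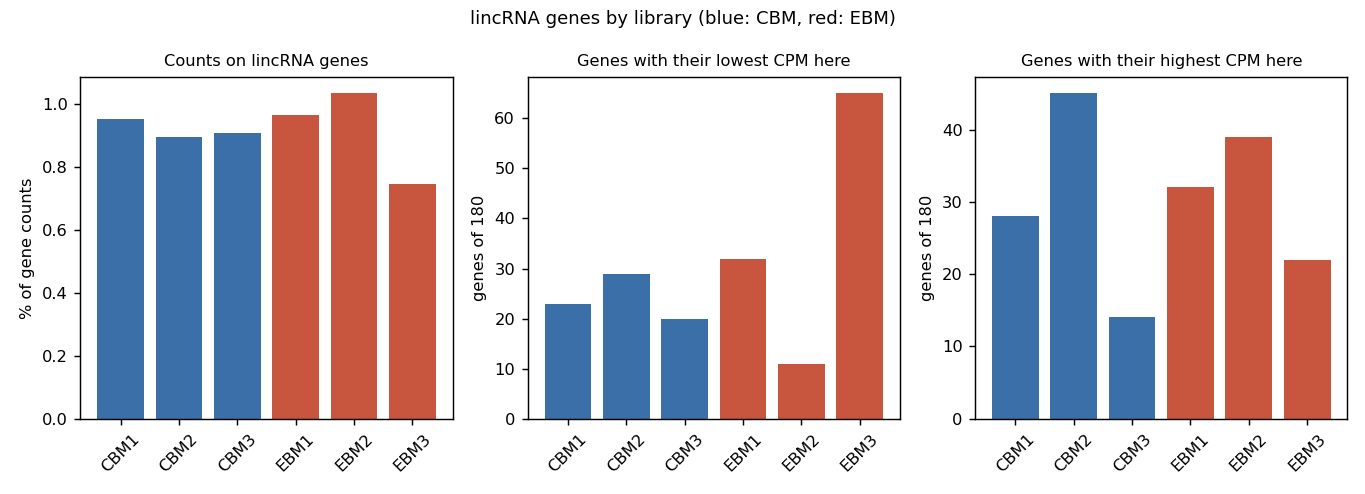
Share of gene counts on lincRNA genes (left, percent), and the number of the 180 genes whose lowest (middle) or highest (right) CPM fell in each library, as bars for CBM (blue) and EBM (red) replicates 1 to 3. EBM replicate 3 had the lowest share, 0.745%, and the lowest level of 65 genes, while CBM replicate 2 had the highest level of 45.

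Marker sums of other cell types ranged from near 0 to above that of the leukemia markers, and several were uneven between libraries. Leukemia and progenitor markers (9 of 9 tested) summed to 919 to 1309 CPM in CBM and 953 to 1206 in EBM, and all 9 were detected. Most of their counts over the 6 libraries were on Runx1 (54692), Myb (33294) and Kit (23900). Mpo had 1488 counts, Cd34 894 and Ptprc 189. The 12 osteoblast and stromal markers, with none tested and 3 at 0, summed to at most 2.06 CPM in any library. Endothelial, macrophage, and T and NK markers reached at most 3.42, 3.95 and 3.06 CPM. B cell markers reached 14.5 CPM and megakaryocyte markers 28.4. The 8 erythroid markers ran from 2260 to 5844 CPM in CBM and from 2648 to 4177 in EBM, and the 8 neutrophil markers from 3.72 to 242 in CBM and from 37.2 to 175 in EBM. The 14 dissociation and immediate early genes ran from 3357 to 9624 CPM in CBM and from 7238 to 9169 in EBM, with Fosb the gene of most counts. The log2 fold change was positive for 9 of the 14 and negative for 5, and 0 passed the adjusted test. Those at an unadjusted p under 0.05 were the heat shock genes Hspa1a (log2 fold change 4.40, p 3.25e-05) and Hspa1b (3.74, p 0.000192) and the phosphatase gene Dusp1 (-1.13, p 0.00591), all named after their values were seen. The part of these differences in the lincRNA levels was not tested.

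A handful of transcripts made up most of the lincRNA counts. Together the 180 genes had 968554 counts, of which Xist held 322542, Malat1 149767, Gm26809 86995, Gm42047 78102, Gm26917 60906 and Neat1 34229, while the median gene had 569. Levels between genes were compared per length, as CPM per kilobase of exon (FPKM). Gm26809 was highest with a mean of 272 FPKM, followed by Malat1 (198), 1700016F12Rik (196), Gm26917 (170), Xist (165) and Gm42047 (127). In this order the neighbours overlapped in their ranges over libraries, with 118 to 511 FPKM for Gm26809, 170 to 252 for Malat1, 87.8 to 273 for 1700016F12Rik, 138 to 212 for Gm26917, 134 to 180 for Xist and 85.5 to 154 for Gm42047. The next were Epb41l4aos with a mean of 83.8 FPKM, Gm10076 (62.4), Mir142hg (57.2) and Snhg6 (43.5).

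Sequence shared with other genes may bear on some of these levels, which was not tested. Gm26809 shared 36.8% of its 50-base stretches, most often with Gm20186, and Xist 11.8%, most often with Tsix. Malat1 shared 6.24% and Snhg6 6.56%. Of the 50-base stretches of Gm10076, a single-exon gene of 384 bases, 69.9% occur in another gene's transcripts, most of them in Rpl41, which encodes a ribosomal protein. Of Gm42047, 64.8% are shared, most often with Gm47939. Gm26917, 1700016F12Rik, Epb41l4aos and Mir142hg shared none. The search covered annotated GENCODE M21 transcripts only, so it could not show sequence shared with repeats or other stretches outside them. Gm26917 (chr17:39843013-39846341) had 553, 458 and 501 CPM in CBM and 662, 522 and 706 in EBM, with a log2 fold change of 0.32 (SE 0.14, unadjusted p 0.0573), and the groups overlapped.

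**Figure D2:**
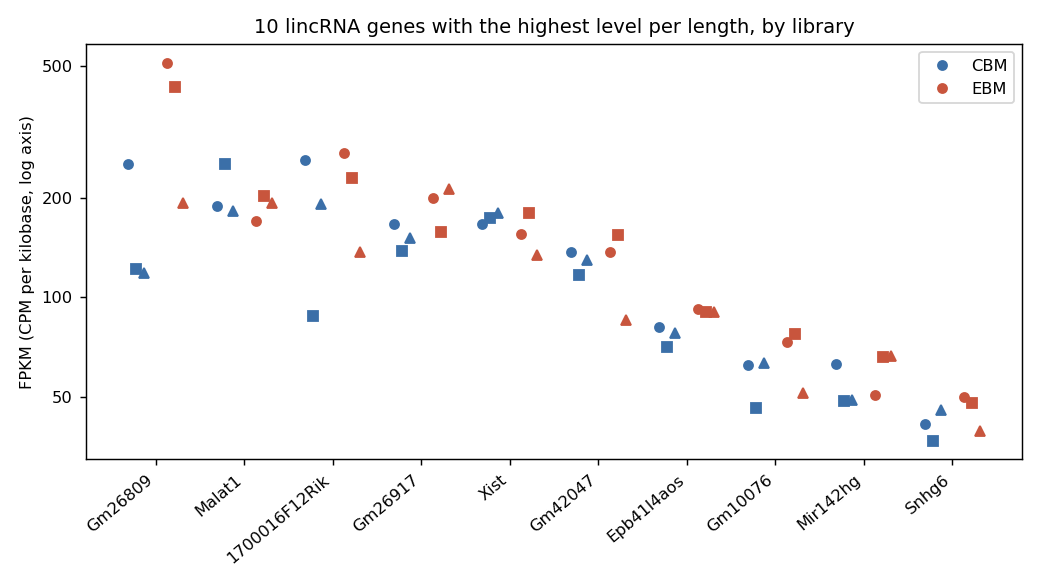
Level per length (FPKM, log axis) of the 10 lincRNA genes highest by this measure, with a point for each CBM (blue) and EBM (red) library, and circle, square and triangle for replicates 1, 2 and 3. Gm26809 and 1700016F12Rik spread widely, from 118 to 511 and from 87.8 to 273 FPKM, while Xist stayed between 134 and 180.

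No lincRNA gene passed the test between regions. In the quasi-likelihood test of edgeR, adjusted by Benjamini-Hochberg over the 13352 genes tested, 0 of the 180 genes had an adjusted p under 0.05, and the smallest was 0.184. Over all genes the same test called 0, or 0% of 13352. DESeq2 called 3 of the 180 (Gm27010, Gm47469 and 1700020I14Rik), beside 1.39% of the genes it tested. An unadjusted p under 0.05 was found for 17 genes, or 9.44%, with 8 higher and 9 lower in EBM, beside 7.91% of all genes, 4.01% higher and 3.90% lower. The CPM ranges of the regions were apart for 28 genes, or 15.6%, beside 15.1% of all genes. In 9 of these, or 5.0% of the 180, every EBM library was above (7.47% of all genes), and in 19, or 10.6%, every EBM library was below (7.65% of all genes). The median log2 fold change was -0.04, with 83 genes higher and 97 lower in EBM, beside a median of 0.0017 over all genes and 50.4% of them higher. Scaling by library totals alone moved the split at an unadjusted p under 0.05 to 5 higher and 15 lower. Without EBM replicate 3 it was 15 higher and 5 lower, and the median turned to 0.02. The split over all genes under these alternatives is not given here.

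Without matching on counts, the lincRNA genes scattered more between libraries of a region than messenger RNAs did. The median SD of log2 CPM within a region was 0.319 for the 180 genes and 0.194 for protein-coding genes. At like counts the gap was smaller or turned. It was 0.361 against 0.407 for genes with 200 to under 500 counts, 0.277 against 0.246 for 500 to under 2000 counts, and 0.205 against 0.158 for 2000 or more. In these count classes, 6 of 81, 3 of 64 and 8 of 35 of the lincRNA genes had an unadjusted p under 0.05, which is 7.41%, 4.69% and 22.9%, beside 6.89%, 9.67% and 7.70% of protein-coding genes. Another 168 lincRNA genes under 200 counts passed the filter on low counts, of which 8 (4.76%) had an unadjusted p under 0.05.

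**Figure D3:**
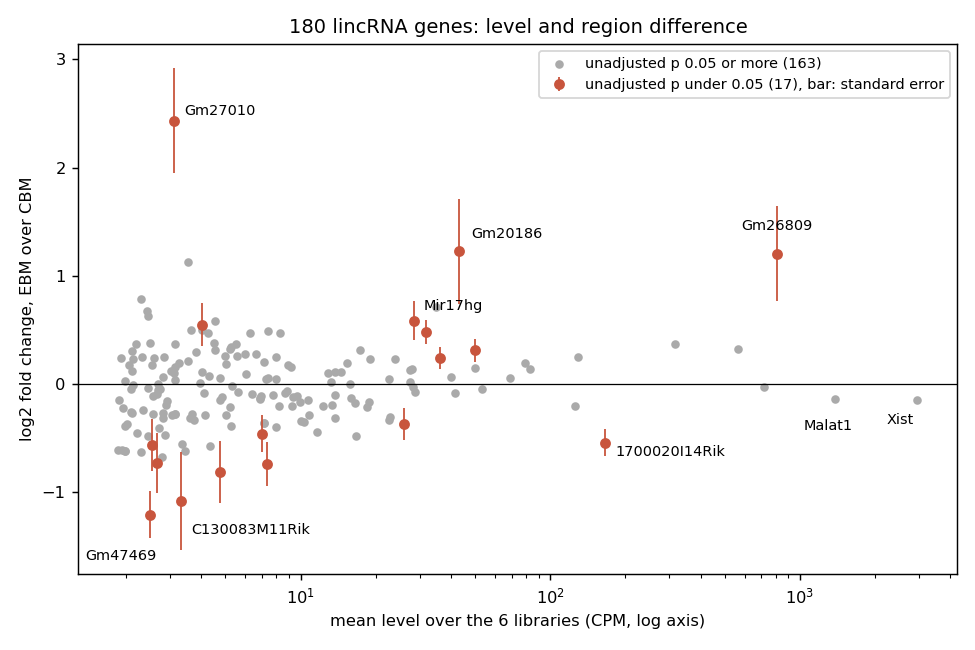
Log2 fold change of EBM over CBM against the mean level over the 6 libraries (CPM, log axis) for the 180 lincRNA genes, with the 17 at an unadjusted p under 0.05 in red with their standard error. Gm27010 had the largest fold change (2.43), and Xist and Malat1, the most abundant by CPM, lay near 0 (-0.15 and -0.14).

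Gm27010 had the largest difference of the 180 genes. It lies on chr14:61625926-61627337 (minus strand, 2 exons, identifier ENSMUSG00000098183). It had 13, 26 and 16 counts in CBM and 60, 158 and 57 in EBM, or 0.740, 1.37 and 0.794 CPM against 3.31, 8.80 and 3.66. The EBM libraries thus all lay above the CBM libraries, and EBM replicate 2 was far above the other EBM libraries. The means were 0.967 ± 0.349 (SD, n = 3) and 5.26 ± 3.07 CPM (SD, n = 3), 5.43 times higher in EBM. The log2 fold change was 2.43 (SE 0.49), with an unadjusted p of 0.00167, and the unadjusted p stayed under 0.05 with each library left out in turn, at a log2 fold change of 1.84 to 2.77. Gm27010 lies on the same strand within an intron of Dleu2, a long host transcript of the microRNAs miR-15a and miR-16-1, and shares no exonic base with it. Dleu2 had a log2 fold change of 0.31 (SE 0.18), with 26.7 to 33.0 CPM in CBM and 28.8 to 44.5 in EBM. Dleu2 was also highest in EBM replicate 2.

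Gm47469 had the smallest p of the 180 genes and was lower in EBM. It lies on chr13:74553910-74564256 (minus strand, up to 5 exons, ENSMUSG00000113047). It had 57, 72 and 69 counts in CBM and 30, 26 and 22 in EBM, or 3.24, 3.79 and 3.42 CPM against 1.66, 1.45 and 1.41. The groups did not overlap, and both were tight. The log2 fold change was -1.21 (SE 0.22), with an unadjusted p of 0.000890 and a range of -1.28 to -1.14 with each library left out in turn.

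A pair of lincRNA genes beside Gm47469 on the same strand were also lower in EBM. E430024I08Rik (chr13:74434781-74463429) had 6.66, 5.58 and 6.00 CPM in CBM and 4.86, 3.12 and 2.38 in EBM, with no overlap and a log2 fold change of -0.81 (SE 0.29). Gm46430 (chr13:74579358-74617945), looked at for its place and after its values were seen, had 19.3, 20.1 and 18.8 CPM in CBM and 16.2, 15.8 and 9.57 in EBM, with no overlap and a log2 fold change of -0.48 (SE 0.21, unadjusted p 0.0599). EBM replicate 3 was the lowest for all 3 genes. Gm47469 and E430024I08Rik each shared 50-base stretches most often with Gm46430, and Gm46430 with Zfp825, a zinc finger gene in the same interval, so their counts may not be independent. Zfp825 had 11.2 to 12.8 CPM in CBM and 8.55 to 11.5 in EBM, and its log2 fold change was -0.23 (SE 0.17). Erap1, the next protein-coding gene, which encodes a peptidase that trims antigenic peptides, had a log2 fold change of -0.18 (SE 0.09).

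The promoter of E430024I08Rik is printed because these neighbours were lower together. It is the RefSeq window of 250 bases before and 50 after the start on GRCm38.p6, chr13:74463563-74463862, minus strand, with its start 183 bases from that of the table. Capitals mark the letters TGTGGT, searched on both strands, which are a core of the site bound by RUNX proteins such as AML1.
E430024I08Rik promoter: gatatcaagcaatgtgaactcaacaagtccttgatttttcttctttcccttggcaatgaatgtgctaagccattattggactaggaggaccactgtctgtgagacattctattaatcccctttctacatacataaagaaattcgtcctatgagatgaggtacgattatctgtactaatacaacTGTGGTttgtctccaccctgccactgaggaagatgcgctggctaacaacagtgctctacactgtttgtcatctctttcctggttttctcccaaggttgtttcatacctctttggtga
Of the 90 lincRNA genes matched to a RefSeq promoter by symbol and strand, 15 (16.7%) held TGTGGT on either strand, beside 16.9% of 27025 promoters of the same length. The RefSeq window of the neighbour Gm46430, also lower in EBM, held 0 matches, as did those of 1700063H04Rik and F420014N23Rik. A match is a description of the letters only.

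Gm26809 and Gm20186 overlap on opposite strands of chromosome 6 and were both higher in EBM. Gm26809 lies on chr6:18844220-18847360 (plus strand) and Gm20186 on chr6:18845910-18848207 (minus strand), with 855 exonic bases in common. Gm26809 had 756, 362 and 352 CPM in CBM and 1524, 1292 and 574 in EBM. Gm20186 had 41.5, 20.1 and 15.7 CPM in CBM and 91.0, 58.5 and 31.0 in EBM. In both genes replicate 1 was the highest of its group, and the groups overlapped, since EBM replicate 3 fell below CBM replicate 1. The log2 fold changes were 1.21 (SE 0.44, unadjusted p 0.0294) and 1.23 (SE 0.48, unadjusted p 0.0400), but leaving out either CBM replicate 2 or 3 or EBM replicate 1 or 2 took the unadjusted p of either gene above 0.05. Reads on the exonic bases in common cannot be assigned to one of the pair without strand. Lsm8, which encodes a subunit of the spliceosomal Lsm ring and starts 372 bases from Gm20186 in the opposite direction, had 43.9 ± 3.42 CPM in CBM and 42.8 ± 1.53 in EBM (SD, n = 3 each).

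**Figure D4:**
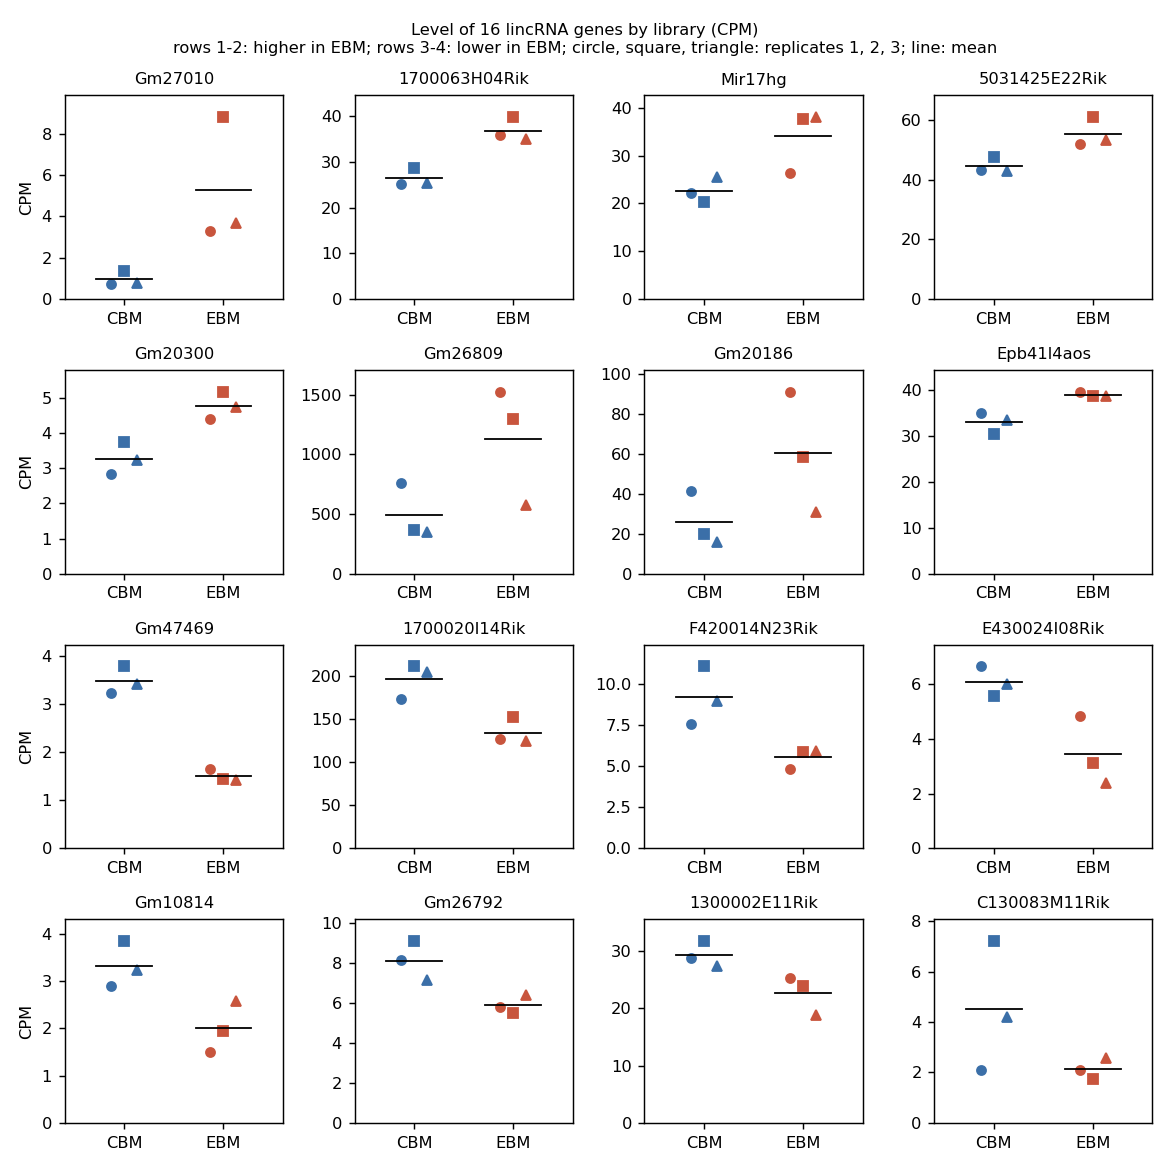
Level (CPM, axes from 0) of the 8 lincRNA genes with the smallest p among those higher in EBM (rows 1 and 2) and the 8 among those lower in EBM (rows 3 and 4), with a point per library and a line at the mean of 3. In Gm27010 and Gm47469 the groups are apart, while Gm26809, Gm20186 and C130083M11Rik overlap.

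Among genes of higher level, 1700020I14Rik was lower and 1700063H04Rik higher in EBM. 1700020I14Rik (chr2:119594297-119607502, plus strand, ENSMUSG00000085438) had 173, 211 and 204 CPM in CBM and 127, 152 and 124 in EBM, with no overlap. Its log2 fold change was -0.55 (SE 0.12, unadjusted p 0.00348), and it ranged from -0.65 to -0.49 with each library left out. 1700063H04Rik (chr6:122391379-122392687, plus strand, ENSMUSG00000040657) had 25.3, 28.7 and 25.3 CPM in CBM and 35.8, 39.8 and 35.0 in EBM, again with no overlap. Its log2 fold change was 0.48 (SE 0.11, unadjusted p 0.00401), between 0.42 and 0.54 with each library left out. Replicate 2 was the highest of its group in both genes. The nearest protein-coding genes, Nusap1 (a spindle protein) for the former and Phc1 (a Polycomb subunit) for the latter, had log2 fold changes of 0.13 (SE 0.21) and 0.10 (SE 0.12).

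F420014N23Rik was the only other gene whose unadjusted p stayed under 0.05 with each library left out, among the 16 named genes that began there. It lies on chr10:127195249-127202643 (plus strand, ENSMUSG00000097331), with 244 exonic bases opposite Pip4k2c, a lipid kinase gene. It had 7.57, 11.1 and 8.98 CPM in CBM and 4.80, 5.85 and 5.91 in EBM, with no overlap. The log2 fold change was -0.74 (SE 0.20, unadjusted p 0.00885), while Pip4k2c had -0.06.

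Gm20300 (chr10:30603195-30606634, minus strand, 1 exon) was higher in EBM at a low level. It had 2.85, 3.74 and 3.23 CPM in CBM and 4.42, 5.18 and 4.75 in EBM, with no overlap, a log2 fold change of 0.55 (SE 0.20) and an unadjusted p of 0.0291. Another 4 named genes were lower in EBM, with unadjusted p between 0.0332 and 0.0481. Gm10814 shares 394 exonic bases on the opposite strand with Capn1, which had means of 294 CPM in CBM and 300 in EBM. Gm10814 itself had 2.90, 3.84 and 3.23 CPM in CBM and 1.49, 1.95 and 2.57 in EBM (log2 fold change -0.73, SE 0.28). Gm26792, which runs opposite Cuedc2, had 8.14, 9.11 and 7.14 CPM in CBM and 5.80, 5.51 and 6.43 in EBM (-0.46, SE 0.17). 1300002E11Rik starts 28 bases from Map3k13, a gene for a MAP kinase kinase kinase, and shares 227 exonic bases with it on the same strand. 1300002E11Rik had 28.7, 31.7 and 27.3 CPM in CBM and 25.2, 23.8 and 18.8 in EBM (-0.37, SE 0.15). In Gm10814, Gm26792 and 1300002E11Rik every EBM library was below every CBM library. C130083M11Rik had 2.11, 7.21 and 4.22 CPM in CBM and 2.10, 1.73 and 2.57 in EBM, so CBM replicate 2 set its log2 fold change of -1.08 (SE 0.45), which was -0.57 without that library.

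An annotated microRNA lay inside 10 of the 180 genes, on the same strand in 9 of them and on the opposite strand in Dubr. Of the 9, 6 were higher and 3 lower in EBM, with log2 fold changes from -0.44 for Ftx to 0.59 for Mir17hg and a median of 0.19, and Mir17hg had the 1 unadjusted p under 0.05. The other members of the 9 were Mir142hg, Snhg10, Snhg20, AL805899.1 (log2 fold change 0.50), 2900076A07Rik (0.21), 4833445I07Rik (0.17) and 6720427I07Rik (-0.04), the last 4 and Dubr named after their values were seen. Mir17hg had 22.2, 20.2 and 25.6 CPM in CBM and 26.4, 37.7 and 38.0 in EBM. The regions did not overlap, though EBM replicate 1 lay only just above CBM replicate 3. The log2 fold change was 0.59 (SE 0.18, unadjusted p 0.0139), the p rose to 0.0544 without EBM replicate 2, and the fold change ranged from 0.49 to 0.74 over all alternatives. Myc, known to activate the promoter of this cluster, had 126 ± 15.6 CPM in CBM and 52.6 ± 1.25 in EBM (SD, n = 3 each), and its log2 fold change of -1.26 (SE 0.11) did not pass the quasi-likelihood test of edgeR either (Benjamini-Hochberg adjusted p 0.0583). Mir142hg, the host of the blood cell microRNA miR-142, had 16.8, 13.1 and 13.1 CPM in CBM and 13.6, 17.7 and 17.9 in EBM, and the groups overlapped (log2 fold change 0.19, SE 0.18). Mirt1, on the microRNA host list by its name and with no annotated microRNA inside it, had 27.3 ± 3.93 CPM in CBM and 27.6 ± 6.36 in EBM (SD, n = 3 each), and its log2 fold change of 0.02 was -0.05 with library totals alone. Over the list of 19 microRNA hosts, 16 were in the table under any biotype, 6 were tested and 8 were at 0. Of the 6, 5 were higher and 1 lower in EBM, 1 had an unadjusted p under 0.05 (Mir17hg) and 0 passed the adjusted test, with a median log2 fold change of 0.25. Mirt1 is among the 5 higher.

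SnoRNAs are guides for chemical modification of ribosomal RNA, and an annotated one lay inside 6 of the 180 genes. It was on the same strand in 4 of them, Epb41l4aos, Snhg6, Snhg12 and 2700038G22Rik, and on the opposite strand in Gm17300 and Gm26816. Snhg10 and Snhg20, on the snoRNA host list by their names, hold an annotated scaRNA, a guide for small nuclear RNAs, and no annotated snoRNA. The log2 fold changes of 2700038G22Rik (-0.16), Gm17300 (0.21) and Gm26816 (-0.01), named after their values were seen, had unadjusted p from 0.511 to 0.965. Epb41l4aos had 35.1, 30.5 and 33.5 CPM in CBM and 39.7, 38.7 and 38.7 in EBM. The groups did not overlap, and the log2 fold change was 0.24 (SE 0.10, unadjusted p 0.0472), but the p was above 0.05 with any of the 6 libraries left out. The log2 fold changes of the Snhg genes were 0.23 for Snhg20, 0.19 for Snhg12, 0.15 for Snhg6 and -0.05 for Snhg10, with unadjusted p from 0.148 to 0.874. In the whole list of 21 snoRNA hosts, 19 were in the table and 15 were tested, of which 9 were higher and 6 lower, with a median log2 fold change of 0.07. Epb41l4aos was the 1 gene of these at an unadjusted p under 0.05, and 0 passed the adjusted test. The list summed to 1151 to 1329 CPM in CBM and 1209 to 1435 in EBM.

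The nuclear lincRNAs were abundant and did not pass the test. Xist had 2992, 3111 and 3225 CPM in CBM and 2792, 3215 and 2412 in EBM, with EBM replicate 3 the lowest (log2 fold change -0.15, SE 0.12). Malat1 had 1314, 1760 and 1269 CPM in CBM and 1184, 1410 and 1342 in EBM (-0.14, SE 0.15), and its fold change was 0.02 without CBM replicate 2. Neat1 had 336, 216 and 273 CPM in CBM and 348, 509 and 210 in EBM (0.37, SE 0.32), so EBM held both the highest and the lowest library. Its log2 fold change was 0.02 without EBM replicate 2 and 0.63 without EBM replicate 3 (unadjusted p 0.0398). Of the 8 nuclear architecture genes listed, 7 were tested, 3 higher and 4 lower, with a median log2 fold change of -0.07, and 0 had an unadjusted p under 0.05.

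At the X inactivation centre the 3 genes tested were all lower in EBM in the fit, none of them past the test. Ftx, which promotes Xist expression and hosts miR-421 and miR-374b, had 12.2, 16.95 and 10.9 CPM in CBM and 8.67, 9.63 and 11.2 in EBM (log2 fold change -0.44, SE 0.21, unadjusted p 0.0764). EBM replicate 3 lay above CBM replicate 3, so the groups overlapped. Jpx, an activator of Xist, had 5.77 ± 0.322 CPM in CBM and 5.47 ± 0.591 in EBM (SD, n = 3 each; log2 fold change -0.08). Tsix, the antisense partner of Xist, had at most 4 counts in a library.

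Pvt1, which lies downstream of Myc on chromosome 15 and starts 52595 bases from it, had 89.3, 63.0 and 84.0 CPM in CBM and 98.5, 83.9 and 77.0 in EBM. The log2 fold change was 0.14 (SE 0.16), and it was -0.00055 without CBM replicate 2. Myc itself was lower in every EBM library, at 51.3 to 53.8 CPM against 108 to 137 in CBM. In the p53 and growth arrest list, which includes Pvt1, 5 of 8 genes were tested, 4 higher and 1 lower, with 0 at an unadjusted p under 0.05 and a median log2 fold change of 0.14. The lower gene of this list was 2900097C17Rik, with 131, 123 and 151 CPM in CBM and 105, 123 and 123 in EBM (log2 fold change -0.21, SE 0.12), and 39.5% of its 50-base stretches occur in Gm7292. The immune and myeloid list of 10 had 4 tested, 3 higher and 1 lower, with 0 at an unadjusted p under 0.05 and a median of 0.10. None of the 8 imprinted lincRNAs listed was among the 180 genes, 3 were tested under other biotypes, and 5 were at 0.

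**Figure D5:**
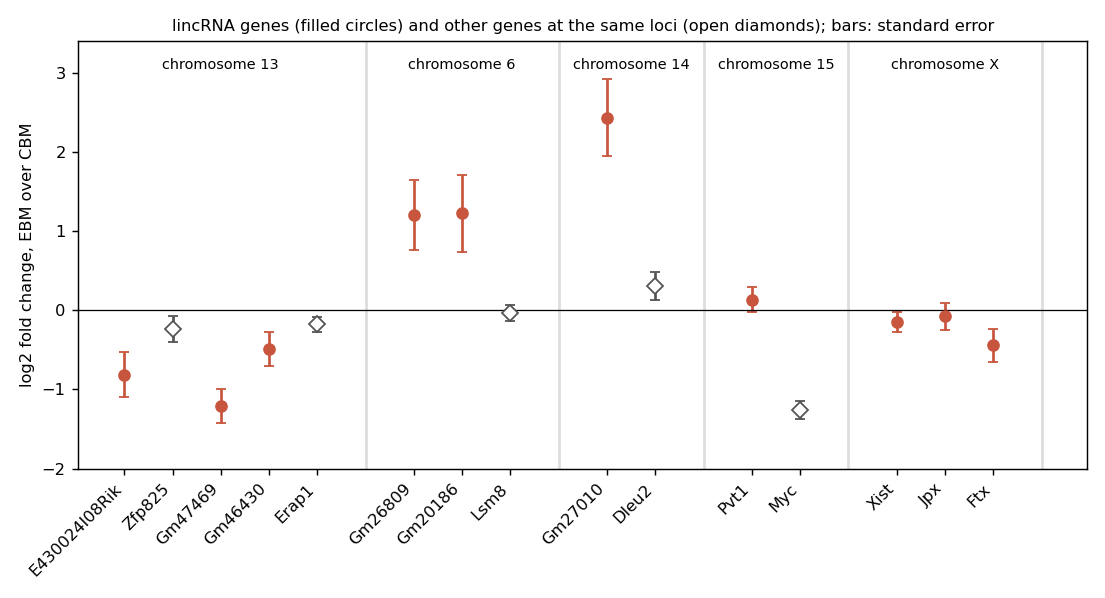
Log2 fold change of EBM over CBM with its standard error for lincRNA genes (filled circles) and other genes (open diamonds) at 5 loci. The 3 lincRNA genes of chromosome 13 lay at -0.81, -1.21 and -0.48, the pair on chromosome 6 at 1.21 and 1.23 beside Lsm8 at -0.04, and Pvt1 at 0.14 beside Myc at -1.26.

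The log2 fold changes of the lincRNA genes and of their neighbours were weakly correlated. The median absolute log2 fold change of the 180 genes was 0.24, beside a median SD within a region of 0.319. Such spread lowers a correlation, so a weak one does not show that the pairs are unrelated. The protein-coding gene with the nearest start was tested for 142 of the 180. The log2 fold changes of the pair had the same sign in 78 of 142, with a Pearson correlation of 0.10 and a Spearman correlation of 0.07 across genes, which share libraries and are not independent. For the 32 genes with a start within 1000 bases of the neighbour the Pearson correlation was 0.08, with the same sign in 20, and for the 23 of these in divergent orientation it was -0.13. Of the lincRNA genes at an unadjusted p under 0.05, 14 had a tested neighbour, 5 with the same sign. Among these neighbours 0 had an unadjusted p under 0.05, beside 11 of the 142 and 7.91% of all genes. With 14 genes, 0 cannot be told from that share. An example of opposite sign is 5031425E22Rik, which starts 172 bases from Kmt2e, a gene for a chromatin regulator, and runs the other way. It had 43.4, 47.6 and 43.0 CPM in CBM and 52.1, 61.0 and 53.3 in EBM (log2 fold change 0.31, SE 0.11), and Kmt2e had 169 ± 23.5 and 142 ± 13.1 CPM (SD, n = 3 each; -0.25, SE 0.13). Among lincRNA genes themselves, 36 lay within 200 kb of another, in 16 groups, and 10 groups had 1 sign throughout.

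Of the 5 genes with the widest spread over libraries, Gm27010, described above, had its regions apart and the other 4 did not. Gm30648 had 68, 10 and 31 counts in CBM and 66, 41 and 1 in EBM, an SD of 1.75 in log2 CPM over the 6 libraries. Gm26799 (4.32, 1.63 and 0.744 CPM in CBM, 8.34, 5.34 and 0.835 in EBM) and Gm28187 (6.37, 1.32 and 4.12 in CBM, 7.73, 6.12 and 1.41 in EBM) were highest in EBM replicate 1. Gm30648 and Gm28187 had their lowest values in CBM replicate 2 and EBM replicate 3, as did 1700016F12Rik, with 57.5 and 89.7 CPM there and 126 to 179 in the other 4 libraries. F930017D23Rik went the other way, with 4, 171 and 65 counts in CBM and 24, 28 and 82 in EBM, so that CBM replicate 2 and EBM replicate 3 were its highest. The erythroid marker sum was also highest in CBM replicate 2 (5844 CPM) and EBM replicate 3 (4177), and its part in this pattern was not tested. The log2 fold changes of these genes, from -0.62 for F930017D23Rik to 1.13 for Gm26799, had unadjusted p between 0.239 and 0.977, and those of F930017D23Rik and Gm30648 changed sign with limma-voom.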

How the data were processed

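Libraries of AE9a leukemia cells were sequenced from CBM and EBM, 3 each. Per the methods, the authors depleted rRNA and used a directional kit, while the labels give the library type as mRNA. The submitters' processing notes name HISAT2 2.0.5 and mm10. The counting tool and its strand setting are not given in the sources used here. The deposited values are raw counts per gene, without normalization, beside a gene length. Depth was 16436526 to 19462964 counts per library, with a floor of 3 counts at 0.154 to 0.183 CPM. All 180 lincRNA genes passed the filter on low counts.

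With edgeR 4.0.16 (R 4.3.3), filterByExpr left 13352 genes, which were scaled by TMM (factors 0.948 to 1.037) and tested by the quasi-likelihood F-test without a block, adjusted by Benjamini-Hochberg at 0.05. The fit had a common dispersion of 0.0617 and 2.81 prior degrees of freedom. Single values were tested by exact permutation over 20 relabellings. Log2 CPM used a prior count of 2. CPM used TMM library sizes over the genes tested. Libraries of a region differed beyond sampling noise. On simulated counts for the 13352 genes the test recovered 80% of 200 genes with log2 changes of 1, 2 or 3 and called 17 unchanged genes. The simulated counts followed the fitted dispersion trend, without spread particular to a gene or library, so 80% is not the sensitivity in the real counts. The median absolute log2 fold change of the 180 genes, 0.24, was below the changes simulated. Sequences and positions came from GENCODE M21 and RefSeq.

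Named genes were those in the lincRNA lists, the 10 highest per length, the 8 with the smallest p in each direction, the 5 with the largest SD and those beside the count limit. Genes and lists were chosen with earlier results of these data known. Alternatives were DESeq2 1.42.0, limma-voom (limma 3.58.1), edgeR's newer method, other scalings and filters, a replicate block, thinning, other count limits and each library left out.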

Additional observations from a re-analysis of the deposited data

How the results depend on the processing

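DESeq2 called 3 of the 180 genes at an adjusted p under 0.05 (1 higher, 2 lower in EBM) where edgeR called 0, and the cause was not tested. The count at an unadjusted p under 0.05 was 17, and 5 among the 81 genes that overlap no other gene, where fewer genes were counted. A limit of 400 counts left 114 genes and one of 100 counts gave 268. With each library left out in turn, the count at an adjusted p under 0.05 stayed at 0, the count at an unadjusted p under 0.05 ran from 10 (without CBM replicate 3 or EBM replicate 2) through 11 (without CBM replicate 2) to 20 (without EBM replicate 3), and the genes without overlap between regions ran from 40 to 68, since fewer libraries separate more easily. The share over all genes is not given for left-out libraries, the replicate block or genes without overlap with another gene. Those counts are therefore not read as a result about the lincRNA genes. The median log2 fold change ran from -0.07 to 0.02 and the lincRNA share difference from -0.063 to 0.081 percentage points. The mean centred level difference ran from -0.071 to 0.073, against -0.015 with all libraries.

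Libraries of the same replicate number deviated together with r of 0.68, -0.20 and 0.20 over all genes, so the numbers were not taken as pairs, and CBM replicate 2 correlated best with EBM replicate 3 (0.51). With the replicate block, 0 genes had an adjusted p under 0.05 and 20 an unadjusted p under 0.05, 13 of them shared with the 17, and the median was -0.05.

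Of 585 log2 fold changes of the 39 named genes under 15 alternatives, 556 kept sign and side of the threshold, 3 passed it (DESeq2) and 26 changed sign, and 29 genes never changed sign. Outside the left-out libraries these were F930017D23Rik (0.10) and Gm30648 (-0.56) with limma-voom, Mirt1 (-0.050) and Gm30648 (-0.030) with library totals alone, Mirt1 (-0.0025) and Gm30648 (-0.14) with the replicate block, and Snhg10 (0.078) in thinned counts. With libraries left out, Gm42047 ran from -0.21 to 0.17, Malat1 from -0.23 to 0.024, Pvt1 from -0.00055 to 0.24, Snhg10 from -0.30 to 0.11, 1700016F12Rik from -0.082 to 0.61, F930017D23Rik from -1.53 to 0.63, Gm28187 from -0.054 to 0.90, Gm30648 from -0.72 to 0.95, Mirt1 from -0.091 to 0.19 and Gm26711 from -0.51 to 0.0041. Depth limits genes near 200 counts, where the SD within a region was 0.361.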
